A study of Mus musculus with 4 samples.

Results

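The 10 genes described here, Ky, Mylk4, Smco1, Lrtm1, Gal3st3, Myot, Asb14, Lrrc39, Gpr22 and Car14, were picked by symbol from the 19465 genes measured in 4 mouse heart sections. They were proposed as striated muscle genes that were higher with an IL-17A antibody. Their treatment contrast over whole sections therefore chose them and is given as a description, without a test. Data were spatial transcriptomes (Visium) of formalin-fixed, paraffin-embedded hearts from wild type FVB/NJ mice. Every mouse, in both groups, was immunized against a MyHCα peptide (MyHCα is the main myosin heavy chain of adult mouse heart) and given the immune checkpoint inhibitors (ICIs) anti-PD-1 and anti-CTLA-4. The ICI-alone group, in which the labels record myocarditis, holds 2 sections. The other group holds 2 sections from mice also given an IL-17A neutralizing antibody. Each group has 1 section of batch 1 and 1 of batch 2, and the batch number is used as the replicate number. No section of an untreated or unimmunized heart was analysed here. The labels do not state whether a group's sections come from separate hearts. The p-values therefore describe only how these sections vary, which may be technical.

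Striated muscle contracts through the sarcomere, a repeated unit of thick myosin and thin actin filaments. Thin filaments are anchored in the Z-disc and thick filaments are cross-linked in the M-band, and proteins at both sites also sense load and guide protein turnover. The cardiac muscle cell adds to this a surface membrane rich in receptors, ion channels and ion-handling enzymes. Ky encodes kyphoscoliosis peptidase, a Z-disc-associated protein whose loss in mice causes muscle disease, and Myot encodes myotilin, a Z-disc protein that binds actinin and filamin. Lrrc39 encodes an M-band protein that binds myosin heavy chain. Mylk4 belongs to the myosin light chain kinases. Asb14 belongs to the ankyrin repeat and SOCS box family, whose members bring substrates to ubiquitin ligases. Gpr22 is an orphan G protein-coupled receptor of the heart, Car14 is a membrane-bound carbonic anhydrase, and Lrtm1 and Smco1 are predicted single-pass membrane proteins. Gal3st3 encodes a Golgi enzyme that sulfates galactose.

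Promoter sequence was matched by symbol in the RefSeq promoter table of build GRCm38.p6 (mm10) for 8 of the 10 genes. Myot and Gal3st3 had no entry. The 250 bases before the annotated start were searched on both strands for binding motifs of muscle regulators. The motif of MEF2, a family of transcription factors of muscle, was present in Mylk4, Asb14 and Lrrc39 (3 of 8 genes). It was present in 2.919% of all 32851 promoters of the same length. The following 4 sequences are shown because the first 3 hold the MEF2 motif, in capitals, and Ky, the gene with the largest fold change, holds none. They lie at chr13:32783965-32784214 (minus strand), chr14:26894364-26894613 (plus strand), chr3:116562733-116562982 (plus strand) and chr9:102505888-102506137 (plus strand), and each is written 5′ to 3′ on the strand of its gene.
Mylk4: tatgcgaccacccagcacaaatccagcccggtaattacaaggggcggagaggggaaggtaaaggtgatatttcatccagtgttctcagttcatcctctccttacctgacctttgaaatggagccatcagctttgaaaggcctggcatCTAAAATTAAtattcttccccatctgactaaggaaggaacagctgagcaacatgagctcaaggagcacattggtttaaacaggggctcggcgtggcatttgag
Asb14: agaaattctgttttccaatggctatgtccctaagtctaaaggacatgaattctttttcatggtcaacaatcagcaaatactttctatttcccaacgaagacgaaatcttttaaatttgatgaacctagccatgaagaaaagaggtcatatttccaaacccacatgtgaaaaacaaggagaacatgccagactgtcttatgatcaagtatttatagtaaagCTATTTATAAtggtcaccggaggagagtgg
Lrrc39: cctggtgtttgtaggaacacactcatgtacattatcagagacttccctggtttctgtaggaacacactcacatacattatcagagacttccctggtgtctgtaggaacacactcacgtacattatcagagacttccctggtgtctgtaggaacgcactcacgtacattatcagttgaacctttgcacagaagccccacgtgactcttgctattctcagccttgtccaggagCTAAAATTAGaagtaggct
Ky: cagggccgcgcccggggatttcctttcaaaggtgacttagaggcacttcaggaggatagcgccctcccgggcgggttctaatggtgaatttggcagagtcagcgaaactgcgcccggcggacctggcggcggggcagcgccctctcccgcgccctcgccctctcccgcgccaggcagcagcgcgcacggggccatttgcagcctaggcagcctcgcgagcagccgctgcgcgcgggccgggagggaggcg
The motif spans bases -103 to -94 from the start in Mylk4, -30 to -21 in Asb14 and -19 to -10 in Lrrc39. The windows of Mylk4 and Ky lie wholly inside the annotated genes (chromosome 13, 32700824 to 32806773, and chromosome 9, 102505755 to 102546247), as does that of Car14, so these genes extend upstream of the starts used. Ky has a GC content of 71.2% in this window, above the 90th percentile of all promoters (69.2%). The other motifs searched were the CArG box (by name), the E-box CANNTG, the GATA motif AGATAA, the MCAT motif CATTCC and the nuclear receptor half-site AGGTCA. The CArG box was in 0 of 8 genes (1.467% of all promoters) and the GATA motif in 0 of 8 (9.988%). The MCAT motif was in Car14 alone (12.64% of all promoters), the E-box in 6 of 8 (66.22%) and the half-site in 3 of 8 (14.02%). A match describes letters in this window and was not tested as a binding site. Asb14 and Lrtm1 share chromosome 14, at 26894590 to 26915257 and 29018208 to 29033642. Car14 and Lrrc39 share chromosome 3, at 95897768 to 95905117 and 116562954 to 116583144. The other members lie on separate chromosomes.

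Sections held 2503 to 3052 spots under tissue, and 73167202 and 66255242 UMIs (unique molecular identifiers) in ICI-alone replicates 1 and 2 against 47882576 and 33005923 with the antibody. Depth thus differed between the groups. Spots with at least 0.4% of UMIs on Arg1 and Mmp12, genes of an injury-associated macrophage state, are called the niche. They numbered 213 and 470 in the ICI-alone sections, 239 and 52 in the antibody sections. Cardiac identity was clear in every section: Myh6 stood at 9113, 4773, 22284 and 17829 CPM (counts scaled to a common total, here by library size) in ICI-alone replicates 1 and 2 and antibody replicates 1 and 2. Skeletal myosins were near 0, with Myh1, Myh2 and Myh4 at no more than 0.61 CPM in any section. Spots with over 1% of UMIs on the atrial genes Myl4, Myl7, Sln and Dkk3 were found in antibody replicate 2 alone (163 spots). Spot barcodes name fixed positions on the slide, and 2343 to 2535 barcodes of each section occur in another section by design.

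All 10 genes had a higher group mean with the antibody, and in 9 of them both antibody sections lay above both ICI-alone sections. The share of all genes whose groups lay apart in this way was not counted. Here and below, such counts describe the 10 genes only, and nothing is read from their number. Levels are TMM-scaled CPM (library sizes scaled by the trimmed mean of M-values) and can be compared between sections but not between genes, since the assay reads each gene through its own probes. Ky, at the Z-disc, stood at 4.41 and 2.46 CPM with ICIs alone and at 26.2 and 12.6 with the antibody. Its mean was 5.65 times higher, the largest ratio of the 10. Myot, the other Z-disc gene, did not follow its label: it stood at 44.8 and 15.6 CPM with ICIs alone against 44.3 and 33.3, and the groups overlapped. Its log2 fold change was 0.36 (SE 0.43), the smallest of the 10. Lrrc39, the M-band gene, stood at 88.6 and 48.0 CPM against 185.1 and 131.3, a ratio of means of 2.32.

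Mylk4, the kinase, stood at 30.7 and 9.53 CPM with ICIs alone and at 121.8 and 80.6 with the antibody, a ratio of 5.03. ICI-alone replicate 2 was the lowest section for every one of the 10 genes. Asb14, the ubiquitin ligase adaptor, stood at 45.7 and 18.9 CPM against 121.9 and 64.3. Both antibody sections were above both ICI-alone sections, with a ratio of 2.88. Among the membrane proteins, Lrtm1 stood at 69.8 and 23.2 CPM against 199.1 and 145.3 (ratio 3.70) and Smco1 at 6.33 and 2.38 against 20.5 and 12.4 (ratio 3.78). Gpr22 separated the groups narrowly, with 19.7 and 9.47 CPM against 45.5 and 21.9. Car14 stood at 64.6 and 42.1 CPM against 160.3 and 83.8. Gal3st3, the sulfotransferase, stood at 9.85 and 5.09 CPM against 31.0 and 22.8 (ratio 3.60).

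**Figure D1:**
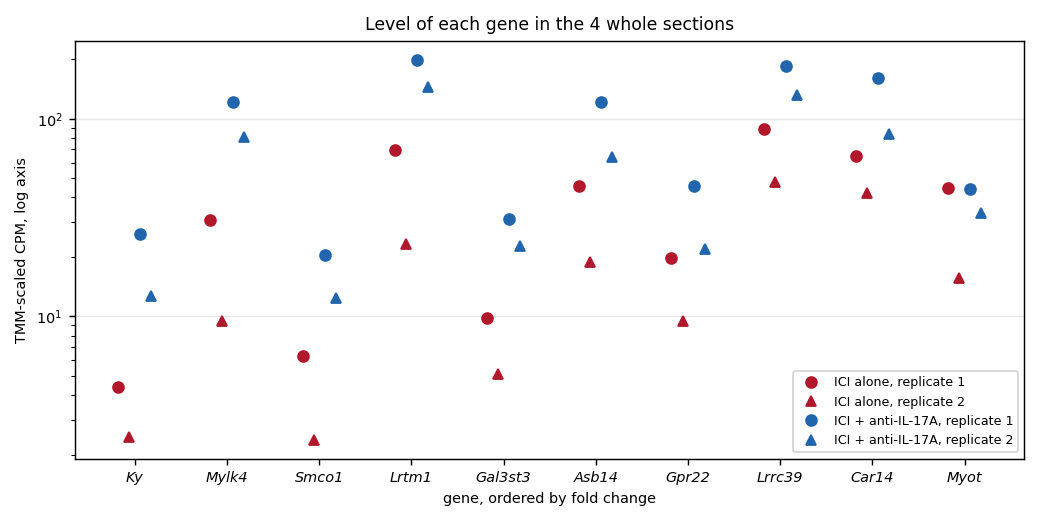
TMM-scaled CPM (log axis) of each of the 10 genes in the 4 whole sections, with one point per section; circles are replicate 1 (batch 1), triangles replicate 2 (batch 2), red is ICI alone and blue is ICI plus anti-IL-17A. The blue points lie above the red ones for 9 genes, and those of Myot overlap.

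In the fit over all genes, log2 fold changes of the 10 genes ran from 0.36 (Myot) to 2.50 (Ky, SE 0.40), with a median of 1.69. The median over all 18817 genes tested was 0.09. The edgeR quasi-likelihood test with Benjamini-Hochberg adjustment called 571 genes higher, 3.03% of those tested, and 1658 lower (8.81%). It called 6 of the 10 genes higher; since this contrast chose them, nothing is read from that count. The 6 were Ky, Mylk4, Smco1, Lrtm1, Gal3st3 and Lrrc39, and the members just outside the threshold were Car14 (log2 1.19, SE 0.33), Asb14 (1.53, SE 0.44) and Gpr22 (1.21, SE 0.41). The median over the 10 genes was 1.25 when antibody replicate 1 was left out and 2.29 when ICI-alone replicate 1 was. The medians over all genes were then 0.07 and 0.04. With batch as a block, 9 of the 10 were called higher, among 1520 of 18817 genes.

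The 15 measured genes of a fixed list of cardiac sarcomere, calcium and energy genes (among them Myh6, Tnni3, Ttn, Ryr2 and Ckm) had a median log2 fold change of 0.77. All 15 were above 0, and 0 were called higher by edgeR and 8 by DESeq2. Their summed level was 70576 and 43877 CPM by library size with ICIs alone against 114572 and 95452 with the antibody. In a spot or section, fewer muscle cells and less RNA per muscle cell cannot be told apart. Fibroblast, macrophage and neutrophil markers moved the other way. Of 14 fibroblast genes 9 fell and 0 rose, with summed levels of 9879 to 22336 CPM with ICIs alone and 3211 to 3588 with the antibody. Of 14 macrophage genes 10 fell, from 2573 to 3580 CPM down to 1197 to 1775, and of 14 neutrophil genes 10 fell, from 898 to 1509 CPM down to 119 to 166. No gene of these 3 lists was at 0 in any section. In the other lists, of 14 genes each, 1 endothelial and 1 adipocyte gene rose and 0 fell, 3 smooth muscle and pericyte genes rose and 2 fell, and 0 T cell genes were called. Endothelial markers summed to 1807 and 1659 CPM with ICIs alone against 2324 and 2047. The part of any of these lists in the levels of the 10 genes was not tested. Without antibody replicate 1 the falls called were 1 fibroblast, 5 macrophage and 9 neutrophil genes, and without antibody replicate 2 they were 5, 7 and 9.

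Set against the sarcomere list, 7 of the 10 genes had both antibody sections above both ICI-alone sections. The treatment contrast chose the genes, so this is a description. The share of all genes set apart in this way was not counted. UMIs of each gene were divided by UMIs of the 15 sarcomere genes in the same section. Mean log2 differences of this ratio (antibody minus ICI alone) were 1.72 for Mylk4, 1.65 for Ky, 1.26 for Lrtm1, 1.22 for Smco1, 1.09 for Gal3st3, 0.77 for Asb14 and 0.44 for Lrrc39. For these 7 the groups did not overlap. They overlapped for Gpr22 (0.39), Car14 (0.33) and Myot (-0.28). This depended on the denominator: without the 4 most abundant sarcomere genes (Myh6, Tnnt2, Mb and Myl2) Gpr22 (0.53) and Car14 (0.47) were apart too and only Myot overlapped. Gpr22 was also apart without atrial-rich spots (0.34). The pooled SD of the log2 ratio within groups was 0.43 for Mylk4, 0.35 for Ky and 0.07 for Gal3st3. The median difference over the 10 genes was 0.93, and ran from 0.73 to 1.10 when each section was left out in turn. With 2 sections per group, no exact permutation test of one value can reach 0.05, and none is given.

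The 10 genes were also compared among spots with a like share of sarcomere UMIs, again as a description of the contrast that chose them. Spots of all sections were placed in 4 bins of sarcomere share, with bounds at 4.63%, 9.59% and 13.0% of UMIs. In bin 3 Ky stood at 6.92 and 9.01 CPM with ICIs alone and at 27.0 and 18.0 with the antibody, on sarcomere shares of 11.3% and 11.3% against 11.8% and 11.6%. Mylk4 stood there at 39.5 and 26.9 CPM against 112.2 and 104.1. The Mylk4 groups were far apart, while Car14 stood at 112.1 and 162.5 CPM against 139.1 and 119.2, with overlapping groups. In each of bins 2, 3 and 4 both antibody sections were above both ICI-alone sections for Ky, Mylk4, Smco1, Lrtm1, Gal3st3 and Lrrc39. In bin 1, the spots of least muscle, the groups overlapped for Mylk4 and Lrrc39, which were lower with the antibody in batch 1 (log2 -0.77 and -0.34), and were apart for the other 4. Asb14 was apart in bins 1 to 3 and overlapped in bin 4. Gpr22, Car14 and Myot overlapped in all 4 bins. Bin 4 of ICI-alone replicate 2 held 85 spots, the fewest of any section and bin.

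**Figure D2:**
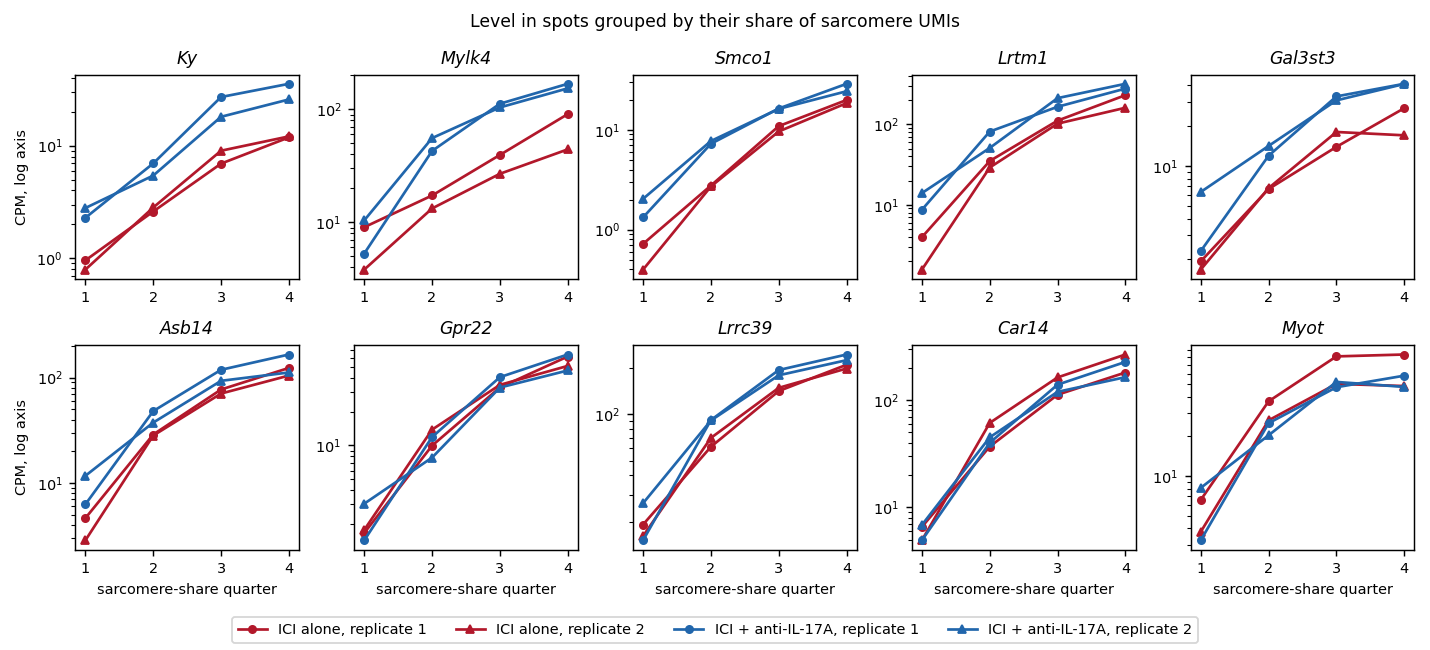
CPM by library size (log axis) of each gene in spots grouped by bin of sarcomere share (1 lowest, 4 highest), with one line per section and symbols as in the plot of levels. Every gene rises from bin 1 to bin 3 in each section; blue lines lie above red ones in bins 2 to 4 for Ky, Mylk4, Smco1, Lrtm1, Gal3st3 and Lrrc39, and cross them for Car14, Gpr22 and Myot.

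Remote spots, 6 or more grid steps from the nearest niche spot, were summed per section to set the treatments side by side away from the niche, again as a description for the 10 genes. Ky stood at 6.05 and 5.00 CPM with ICIs alone and at 36.3 and 14.9 with the antibody (log2 fold change 2.21, SE 0.44). Mylk4 stood at 41.3 and 18.1 CPM against 170.5 and 99.5 (2.18, SE 0.45). Both antibody sections were above both ICI-alone sections for 8 genes, all but Myot and Gpr22. Car14 was close to level in batch 2: it stood at 94.2 and 100.7 CPM against 225.4 and 101.7. Scaled together with the other distance classes, its batch 2 remote values were 113.8 CPM with ICIs alone and 112.9 with the antibody. Its groups overlapped there, so the count of 8 depends on the scaling. Myot stood at 62.7 and 29.9 CPM against 60.3 and 37.6, and its log2 fold change was 0.08 (SE 0.39). The median log2 fold change was 1.26 over the 10 genes, 0.46 over the sarcomere list and 0.02 over all 15562 genes tested. edgeR called 0 genes (0%) in either direction at the adjusted threshold of 0.05, members included, with 2780 at an unadjusted p below it. DESeq2 called 192 higher and 448 lower over all genes, and the fit with batch as a block called 66 and 237. The median over the 10 genes was 1.62 without antibody replicate 2 and 0.67 without antibody replicate 1. The size of the remote differences thus rests in large part on antibody replicate 1. Summed fibroblast markers in remote spots stood at 6720 and 15083 CPM with ICIs alone against 2435 and 3523 with the antibody. Neutrophil markers stood there at 643.3 and 1104 CPM against 22.9 and 118.9, and macrophage markers at 1926 and 2450 against 825.1 and 1708. Their part in the remote levels was not tested.

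Inside the niche all 10 genes fell against remote spots of the same sections. The genes were proposed as muscle genes, and the niche held little muscle RNA. Sarcomere genes made up 0.57%, 0.42%, 0.58% and 0.88% of its UMIs in ICI-alone replicates 1 and 2 and antibody replicates 1 and 2. The direction of the fall is therefore no independent support for the choice of these genes. Lrtm1 stood at 1.04, 0.97, 4.14 and 2.1 CPM in the niche of ICI-alone replicates 1 and 2 and antibody replicates 1 and 2, and at 115.8, 77.1, 310.9 and 181.0 in remote spots. Every section showed the drop. Its log2 fold change was -6.36 (SE 0.56, edgeR adjusted p = 1.53e-07), an 82.4-fold difference. Car14 followed at -6.35 (SE 0.27, adjusted p = 2.1e-10), then Asb14 at -5.78 and Gpr22 at -5.69. Myot, whose treatment groups overlapped, fell by 5.41 on the log2 scale (SE 0.26, adjusted p = 5.06e-10). Lrrc39 fell by 4.62, Smco1 by 4.44, Mylk4 by 4.40 and Gal3st3 by 4.17. The smallest fall was that of Ky, by 3.72 (SE 0.34, adjusted p = 2.29e-07). Of all genes tested, 32.9% were called lower and 37.7% higher in the niche, so a fall was common. The median was -5.01 over the 10 genes, -4.77 over the sarcomere list, of which 15 of 15 fell, and 0.14 over all 15358 genes. Niche levels rest on few UMIs, from 1 (Ky, ICI-alone replicate 1) to 58 (Lrrc39, ICI-alone replicate 2) per gene and section.

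Border spots, 1 or 2 grid steps from the niche, also had lower levels of all 10 genes than remote spots. Lrtm1 stood at 6.58, 1.28, 23.9 and 46.5 CPM in the border of the sections in the order above. It fell by 3.82 on the log2 scale (SE 0.43, edgeR adjusted p = 5.18e-06), the largest fall of the 10. The smallest was that of Lrrc39, at 21.2, 19.5, 40.8 and 53.3 CPM in the border and 138.1, 105.2, 284.6 and 165.9 in remote spots. It fell by 2.41 (SE 0.18, adjusted p = 2.56e-07). The median was -3.16 over the 10 genes, -2.18 over the 15 sarcomere genes and 0.09 over all genes, of which 27.6% were called lower and 29.8% higher. Only Lrrc39, Gal3st3, Mylk4 and Ky lay within the range of the sarcomere genes, -2.89 to -1.23, and the other 6 fell further. The share of all genes that fell beyond this range was not counted, so this is not shown to be particular to the 10. Muscle RNA was scarce here too. Sarcomere genes made up 1.87%, 1.59%, 2.66% and 2.97% of UMIs 1 step from the niche, in the same order of sections. At 12 or more steps they made up 10.4%, 9.98%, 14.5% and 11.4%. The direction of the border fall is therefore no independent support either. The falls of all 10 genes, in both the niche and the border, were also called in each of 16 alternative settings.

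Summed over the 10 genes, levels rose step by step with distance. They stood at 18.0, 12.8, 32.7 and 43.5 CPM in the niche and at 591.0, 685.2, 1286 and 925.3 CPM at 12 or more steps. Relative to sarcomere UMIs the course differed. The 10 genes together stood at 2234, 2036, 3330 and 3768 ppm of sarcomere UMIs (the scale of CPM) 1 step from the niche, the lowest ring in all 4 sections. They stood at 5683, 6868, 8892 and 8101 ppm at 12 or more steps, the highest ring in all 4. Inside the niche itself the ratio was 3148, 3073, 5646 and 4955 ppm, on only 34 to 163 UMIs of the 10 genes per section. In every ring both antibody sections were above both ICI-alone sections, for the summed level and for the ratio.

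**Figure D3:**
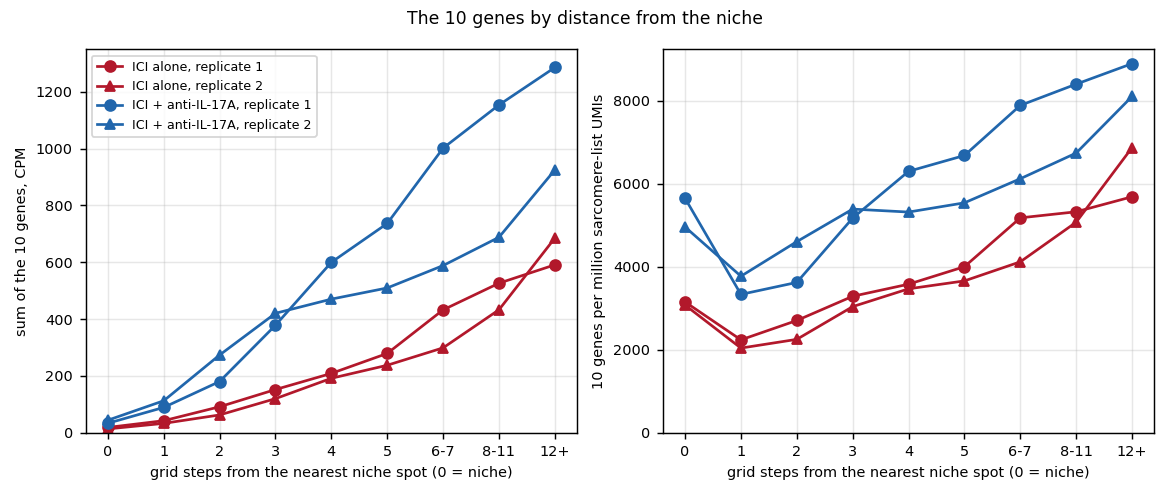
Summed CPM of the 10 genes (left) and their UMIs relative to UMIs of the sarcomere list, in ppm (right) by grid steps from the nearest niche spot, with one line per section and symbols as in the plot of levels. Summed levels rise from at most 43.5 CPM in the niche to between 591 and 1286 CPM at 12 or more steps; the ratio is lowest 1 step from the niche in all 4 sections.

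**Figure D4:**
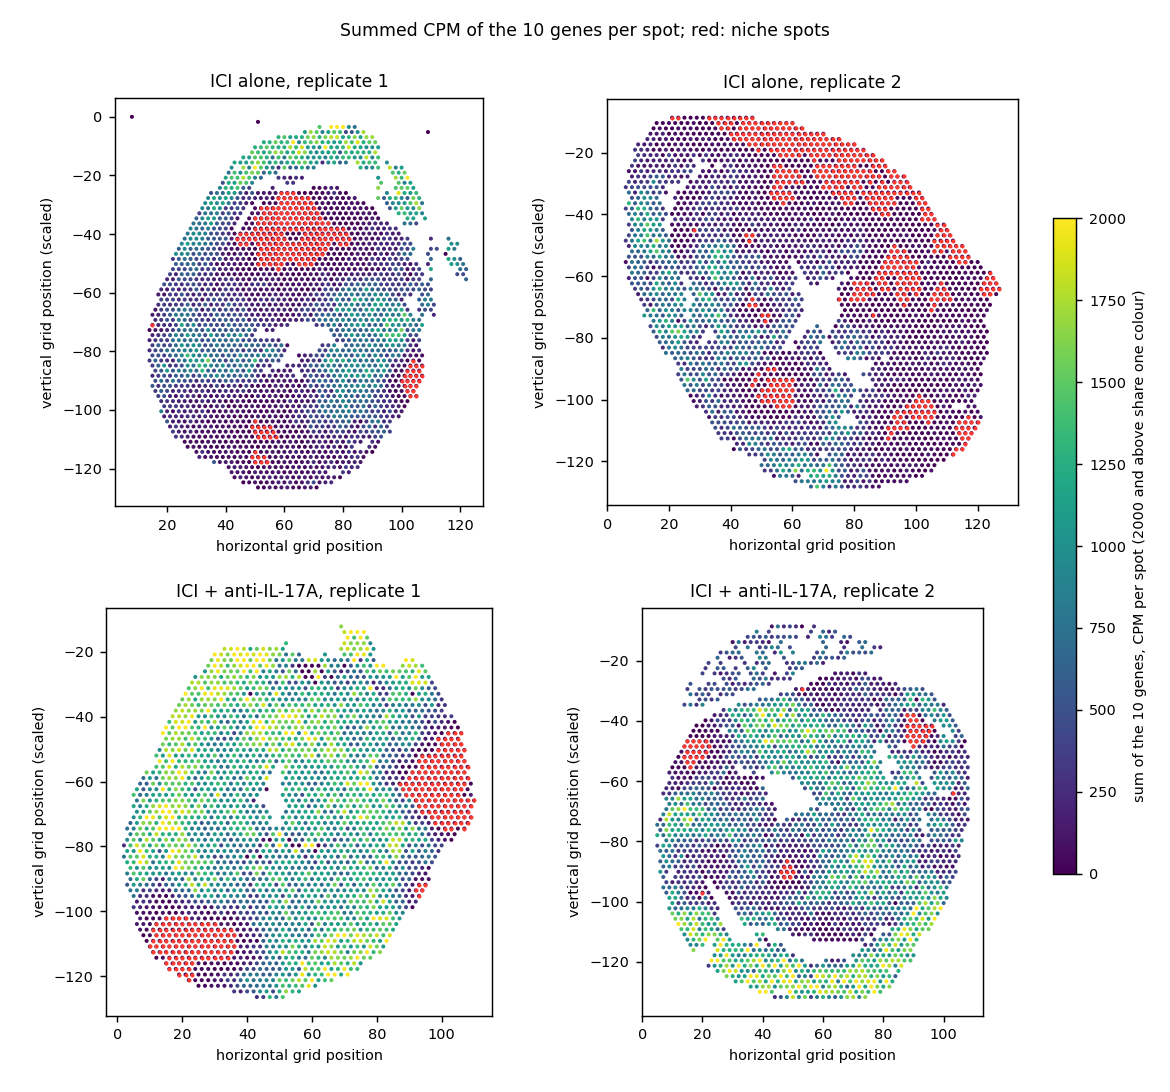
Summed CPM of the 10 genes in each spot of the 4 sections, drawn at its grid position, with niche spots in red. Dark spots of low level surround the niche patches, and the level over a whole section is highest in antibody replicate 1 (955.7 CPM) and lowest in ICI-alone replicate 2 (181.4 CPM).

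Whether the fall in the niche differed by treatment was tested as an interaction, and none of the 10 genes was called. The genes were chosen for higher levels with the antibody, so this difference is not independent of the choice. Of all 17363 genes tested, 0.0518% were called higher and 0.0518% lower. Mylk4 came closest, with a log2 difference of -2.37 (SE 0.41, adjusted p = 0.105; 0.000817 to 0.362 over the alternatives). Its niche levels were 4.94 and 1.42 CPM with ICIs alone against 2.98 and 4.19, so the groups overlapped there. They rest on 38 and 19 UMIs against 18 and 4. Its remote levels were 46.8 and 20.5 CPM against 194.5 and 110.4. DESeq2 called it lower, as did the fits without antibody replicate 2 and with remote spots taken from 4 steps. Without antibody replicate 2, Lrrc39 was called too (-1.07). The other 8 genes had differences from -0.86 (Car14) to 0.92 (Myot), with SE from 0.34 to 0.81.

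Position in the section split the 10 genes by treatment, and the sarcomere share with them (values below). Edge spots have fewer than 6 neighbours under tissue, and interior spots lie 3 or more steps from an edge spot. With ICIs alone 8 and 10 of the 10 genes were higher at the edge, against 1 and 1 with the antibody. The same counts were not made over all genes, so these are not shown to be particular to the 10. Gpr22 stood at 22.3 and 10.6 CPM at the edge and 14.9 and 7.49 in the interior with ICIs alone. With the antibody it stood at 24.5 and 15.1 at the edge and 53.2 and 28.3 in the interior. Lrtm1 stood at 112.5 and 31.3 CPM at the edge against 34.0 and 12.7 in the interior with ICIs alone, and at 274.1 and 124.5 against 187.6 and 145.3 with the antibody. Over all 4 sections none of the 10 genes was called between edge and interior (background 0.336% higher and 0.0275% lower), with Lrtm1 nearest at 0.82 (SE 0.29, edgeR adjusted p = 0.185).

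The difference in edge effect between treatments, a test added after the values were seen, called 0 of 14571 genes (0%) in edgeR, with 2849 at an unadjusted p under 0.05. For the 10 genes the differences (antibody minus ICI alone) ran from -1.56 (Gpr22, SE 0.16, adjusted p = 0.0621) to -0.35 (Mylk4, SE 0.20, adjusted p = 0.397). The genes were chosen by higher whole-section levels with the antibody, and interior spots outnumbered edge spots in every section. These differences are therefore not independent of the choice. The median was -0.89 over the 10 genes, -0.51 over the sarcomere list and 0.03 over all genes. DESeq2 called 4 of the 10 lower, with 90 higher and 103 lower over all genes. Leaving out atrial-rich spots gave 8, with 819 higher and 814 lower of 14370 genes. That setting removes 64 and 537 spots of the ICI-alone sections, and 2 and 172 of the antibody sections. Where Nppa was not used, it removes 163 spots of antibody replicate 2 alone. There 8 were called as well, with 757 higher and 776 lower of 14436 genes. Among remote spots alone, 0 were called, and the median over the 10 genes was -0.25, with Gpr22 at -0.89. Sarcomere shares moved with the split: 7.62% and 4.77% at the edge against 6.51% and 3.8% in the interior with ICIs alone, and 9.91% and 8.55% against 12% and 10.3% with the antibody. Niche spots made up 3.31% and 17.0% of edge spots and 11% and 16.4% of interior spots with ICIs alone, against 11.4% and 1.31% of edge spots and 7.98% and 1.70% of interior spots with the antibody. Beyond the values among remote spots, the part of either in the split was not tested.

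**Figure D5:**
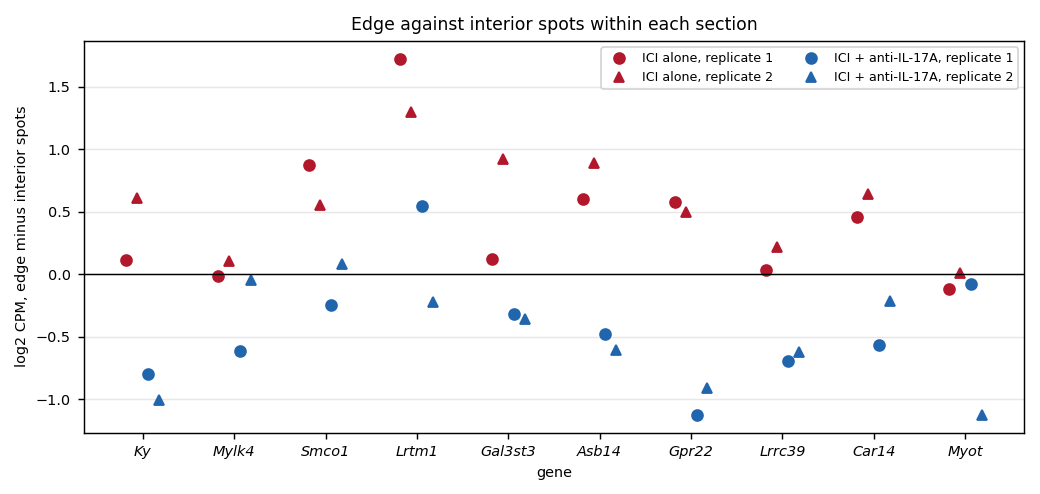
Log2 CPM at the edge minus the interior for each gene and section, with symbols as in the plot of levels; values above 0 are higher at the edge. Red points lie above 0 for 8 and 10 of the genes and blue points for 1 and 1.

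Atrial muscle separated the members within antibody replicate 2. A total of 172 spots had over 1% of UMIs on Nppa, Myl4, Myl7, Sln and Dkk3, with a sarcomere share of 7.39% against 9.72% in its other spots. This is 1 section, so exact 95% Poisson intervals cover counting error only and no test is given. Gpr22 was nearly missing there, with 3 UMIs (1.23 CPM, interval 0.25 to 3.58) against 25.2 CPM (23.4 to 27.0) elsewhere, and with 0 UMIs (interval up to 1.60 CPM) in the 163 spots found without Nppa. Myot stood at 4.91 CPM (2.54 to 8.57) against 38.0, and Lrtm1 at 13.9 CPM (9.63 to 19.4) against 166.2. Mylk4 ran the other way, at 160.3 CPM (144.8 to 176.9) against 80.0, as did Smco1 at 19.6 (14.5 to 26.0) against 12.7. Car14 was alike in both, at 92.0 CPM (80.4 to 104.8) against 89.2 (85.9 to 92.6). Ky stood at 6.54 CPM (3.74 to 10.6) against 14.0, Asb14 at 54.8 CPM (45.9 to 64.9) against 69.6 (66.7 to 72.7) and Lrrc39 at 101.4 CPM (89.2 to 114.8) against 143.1. For Gal3st3 the intervals overlapped, at 18.8 CPM (13.8 to 25.1) against 24.7 (23.0 to 26.5).

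The genes followed each other across tiles of 10 rows by 10 positions, though not equally. The median correlation over the 45 pairs of genes was 0.80 and 0.82 in the ICI-alone sections, 0.90 and 0.60 in the antibody sections, over 32 to 38 tiles per section. Tiles share a library and differ in muscle content, so the values are a description. Asb14 and Lrrc39 correlated at 0.96, 0.89, 0.99 and 0.96 in the 4 sections. Ky and Lrtm1 had the lowest value of any pair in replicate 1 of both groups (0.44 and 0.54). In ICI-alone replicate 2 the lowest was that of Lrtm1 and Myot (0.51), and in antibody replicate 2 that of Gal3st3 and Myot (-0.07). After division by sarcomere UMIs the medians fell to 0.41, 0.33, 0.36 and 0.29. In the authors' deposited table of Moran's I, a score of how far like values cluster in space, Lrtm1 was highest of the 10 in every section (0.728, 0.641, 0.765 and 0.619). It ranked 131, 196, 74 and 46 among the 19219 to 19239 genes listed per section there. The lowest of the 10 in that table was Ky with ICIs alone (0.109 and 0.0495) and Smco1 with the antibody (0.0844 and 0.0359). Ky and Smco1 had 162 to 1255 UMIs per section against 1575 to 9534 for Lrtm1.

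Outside the 10, the genes whose levels over 16 sums (4 distance classes in 4 sections) were most like their mean course were Ogdhl, Slc25a13, Myh7b, Slc25a42, Doc2g, Rnf207, Tcta and Fn3k (r from 0.990 to 0.996, over 9508 genes compared). Ogdhl resembles oxoglutarate dehydrogenase, Slc25a13 is a mitochondrial aspartate/glutamate carrier and Myh7b is a myosin heavy chain. With each section centred on its own mean they included Hopx, Ogdhl, Gstk1, Rmdn1, Ech1, Fn3k and Ppm1k (r from 0.995 to 0.997). Ech1 is an enzyme of fatty acid oxidation. The sums share depth and muscle content, so these values carry no p.

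Genes of related families were compared between treatments over whole sections. Their lists were drawn up with earlier results of this contrast known, so their counts are not independent evidence. Of 21 genes of the ASB family and muscle ubiquitin ligases, 4 rose and 0 fell (median log2 0.49, against 0.09 over all genes). Rnf207, a cardiac RING finger protein, stood at 17.2 and 11.2 CPM with ICIs alone against 51.7 and 37.1 (log2 1.65, SE 0.25, edgeR adjusted p = 0.0222; past the threshold in 14 of 14 alternatives). Klhl38, a kelch protein, rose by 0.98 (adjusted p = 0.0249). Of the relatives of Asb14, Asb18 rose from 13.0 and 7.98 CPM to 26.3 and 24.7 (log2 1.28, SE 0.23, adjusted p = 0.0251). Asb10 rose too (1.26, SE 0.25, adjusted p = 0.0296). Asb15, Asb11 and Asb2 were not called, at 1.17, 0.92 and 0.82. All 5 of these relatives fell in the niche (by 4.04 to 5.31) and at its border (by 2.32 to 3.40). The list had 1 rise when antibody replicate 1 was left out and 12 when ICI-alone replicate 1 was.

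None of the relatives listed for the other members was called by treatment. That list leaves out Car7, Car12 and Car13, carbonic anhydrases that were called (given below). Mylk3, the cardiac myosin light chain kinase, stood at 279.7 and 145.4 CPM against 333.7 and 333.3 (log2 0.65, SE 0.31, adjusted p = 0.174), and fell by 5.29 in the niche. Mylk, the smooth muscle kinase, was near level between treatments (-0.02, SE 0.16) and fell by 1.74 in the niche, and Mylk2 stood at no more than 2.12 CPM (-0.49). The list of 16 myosin light chains and kinases had 0 called in either direction. Beside Myot, the Z-disc relatives Mypn (-0.16, SE 0.22) and Palld (-0.29, SE 0.18) were not called. Beside Lrrc39, Lrrc10 (0.47, SE 0.16, adjusted p = 0.0914) and Lrrc2 (-0.14, SE 0.26) were not called either. Gal3st1, Gal3st2, Gal3st4 and Lrtm2 stood at no more than 1.14 CPM in any section, with log2 values of 0.91, 0.65, 0.19 and -0.29. Among carbonic anhydrases, Car2 (0.23), Car3 (-0.28) and Car4 (-0.37) were not called. In the niche Car4 rose by 2.60 (adjusted p = 9.81e-09) and Car2 by 1.53, while Car14 fell.

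Calls in other lists are given beside a background of 3.03% of all genes higher and 8.81% lower. Rises were not rarer than this background in every list. Of 13 conduction genes 3 rose and 1 fell, of 16 atrial genes 2 rose and 1 fell, and of 25 fast skeletal muscle genes 2 rose and 1 fell. Of 15 carbonic anhydrases 1 rose and 2 fell: Car7 rose (1.84, SE 0.27, adjusted p = 0.0217), and Car13 (-1.49) and Car12 (-2.67) fell. Of 25 Z-disc genes 0 rose and 3 fell: Flnc, encoding filamin C, fell by 1.28 (SE 0.25, adjusted p = 0.0286), Fhl1 by 1.5 and Synpo2l by 1.09. The list had 0 calls without antibody replicate 1 and 0 without antibody replicate 2, and 3 rises and 4 falls with batch as a block. Of 24 genes of the M-band and titin partners, Lrrc14b rose (1.44, adjusted p = 0.0481) and Ankrd2, a stress-responsive titin partner, fell (-1.95, SE 0.32, adjusted p = 0.0225), with Cmya5 at 1.05 (adjusted p = 0.0891). Of 26 myocyte surface receptors 2 rose, Adra1a (1.55, SE 0.34, adjusted p = 0.0353), an adrenergic receptor, and Npr3 (1.06, adjusted p = 0.0420). Adra1b was not called at 1.23 (adjusted p = 0.0610). Of 32 muscle transcription factors 4 rose and 1 fell. Klf15 rose by 0.75 (adjusted p = 0.0296), Tbx5 by 1.15 (adjusted p = 0.0313), and Nfatc4 fell by 1.05 (adjusted p = 0.0322). These list calls rest on all 4 sections: over all genes leaving out antibody replicate 1 gave 79 higher and 250 lower, and antibody replicate 2 gave 134 and 381. Leaving out ICI-alone replicate 1 gave 1554 and 2925, and ICI-alone replicate 2 gave 916 and 1480.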

How the data were processed

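Gene expression was measured by Visium on 4 sections. The deposited matrices hold UMI counts per gene and spot, made by the authors with Space Ranger 2.1.0 per the file headers and with Seurat 5.1.0 and build mm10 per the submitters' processing notes. No source used here names the probe set. The Moran's I score per gene was deposited by the authors and used as given. The 10 genes and all gene lists were chosen with earlier results of these data known. Genes named in the text are the 10, a list of relatives whatever their values, up to 3 genes of smallest p in each other list, and the 8 genes most like the 10 by each likeness measure. One of the latter is not reported here.

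Counts were summed per section, or per class of spot within a section, and fitted with edgeR 4.0.16 in R 4.3.3 (quasi-likelihood test, filterByExpr, TMM scaling, Benjamini-Hochberg threshold 0.05). Whole-section, remote and treatment-difference fits compare 2 sections with 2. Fits between classes hold the section as a block. Those between classes of distance from the niche also leave out Arg1 and Mmp12, and drop classes under 20 spots. DESeq2 1.42.0 was an alternative. Other scalings, filters, niche bounds and remote bounds, leaving out each section and, for the treatment comparisons, batch as a replicate block were the further alternatives. Same-batch sections pair by the labels, and their deviations correlated at r = 0.18 over 18817 genes. Scripts were tested on simulated data. Spots were not deconvolved. Intervals are exact Poisson and cover counting error only. Levels used Python 3.11.15 with numpy 2.4.6, scipy 1.17.1 and pandas 2.3.3, and figures used matplotlib 3.10.9.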

Additional observations from a re-analysis of the deposited data

Results flagged for a closer look

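For 6 of the 10 genes, both ICI-alone sections were higher at the section edge than in the interior and both antibody sections were lower there. The sarcomere share ran the same way, and the share of all genes with this pattern was not counted. The mean log2 contrast of edge against interior with ICIs alone exceeded that with the antibody by 1.26 for Ky, 0.86 for Gal3st3, 1.29 for Asb14, 0.78 for Lrrc39, 1.55 for Gpr22 and 0.93 for Car14. The difference was tested in 1 fit over all genes after the values were seen, and edgeR called none of the 6, with adjusted p = 0.0621 for Asb14, Lrrc39, Gpr22 and Car14, 0.0803 for Ky and 0.166 for Gal3st3. The genes were chosen for higher levels with the antibody, so the difference is not independent of the choice. The cause of the difference was not tested.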

How the results depend on the processing

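All 160 niche and all 160 border values of the 10 genes stayed below 0 and past the threshold in 16 alternatives. Treatment values of the 10 genes stayed above 0 in 139 of 140 whole-section and 148 of 150 remote cases, the exceptions being Myot. Where an antibody or ICI-alone section is left out, the lone section is assumed to vary like the others. Over whole sections (571 higher, 1658 lower), a 10 CPM filter gave 359 and 462, leaving out atrial-rich spots 316 higher, library size alone 1029 lower, the replicate block 1520 higher, and leaving out a section 79 to 1554 higher and 250 to 2925 lower. In remote spots (0 and 0), DESeq2 gave 192 and 448, the replicate block 66 and 237, and leaving out a section 8 to 752 and 35 to 1780. The niche effect by treatment (9 and 9) gave 119 and 122 with DESeq2, 14 higher with DESeq2 size factors, 1 and 0 with library size alone and with 10 CPM, and 21 and 19 with no filter. It gave 5 and 5 without atrial-rich spots, 3 and 2 where Nppa was not used to find them, 2 and 3 with the niche at 0.2% of UMIs, 50 and 45 at 0.8%, 70 and 95 with remote spots from 4 steps, 2 and 2 from 8, and 3 to 1216 and 2 to 1620 leaving out a section. Of the 10 genes, 1 was called there with DESeq2, 1 from 4 steps and 0 to 2 leaving out a section. Edge against interior (49 and 4) gave 329 and 150 with DESeq2, 222 higher with library size alone, 89 and 10 with no filter, 24 and 1 with 10 CPM, 1 lower without atrial-rich spots, 2 lower where Nppa was not used, 11 to 180 and 0 to 94 leaving out a section, and 569 and 387 among remote spots alone, with 1 of the 10 genes. The edge effect by treatment (0 and 0) gave 90 and 103 with DESeq2 (4 of the 10 genes lower), 84 and 114 with no filter (5), 819 and 814 without atrial-rich spots (8), 757 and 776 where Nppa was not used (8), and 0 to 685 and 0 to 431 leaving out a section (0 to 6). The causes were not tested. Niche levels of the 10 genes rest on 1 to 58 UMIs per gene and section, which limits their precision.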

Other observations

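In ICI-alone replicate 2, 537 spots passed the bound on the 5 atrial genes through Nppa: 0 of them passed it on the other 4 genes. Lrtm1 stood at 3.78 CPM there (exact 95% Poisson interval 2.77 to 5.02) against 28.4 in the other spots, while Myot stood at 22.7 CPM (20.2 to 25.5) against 14.4. Mylk4 was alike, at 9.16 CPM (7.55 to 11) against 9.92 (9.10 to 10.8). The sarcomere share was 4.73% in these spots and 4.31% in the others. This is 1 section and was not tested.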
